A study of Mus musculus with 4 samples.

Results

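The numbered zinc finger (Zfp) genes are the rows of the deposited table whose symbol is Zfp followed by a number and at most 1 letter. The table held 382 of them among 46406 rows, after Zfp352, Zfp750 and Zfp42 were left out by the rule. Of the 382 members, 317 had 20 or more recovered reads summed over the 4 libraries and are described in depth, 62 had 1 to 19 reads, and 3 were listed at 0 throughout. A minimum of 20 reads in each single library would have left 6 members. Chromatin accessibility over exons was measured by ATAC-seq, in which the Tn5 transposase cuts and tags open DNA, in J1 mouse embryonic stem cells grown without feeder cells. Of the 4 libraries, 2 are controls labelled wild type and 2 come from cells that overexpress Zscan4, called Zscan4 OE. All were labelled with the same passage, and neither the construct nor its promoter is given in the sources used here. No label states that libraries of one group are separate cultures. All p-values therefore measure spread between these particular libraries, and that spread may be technical.

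Zfp is a symbol of structure, not of function: it marks proteins that carry zinc fingers, small folds held by a zinc ion that often read DNA. Many members carry a KRAB domain, which recruits the co-repressor Trim28 and, through it, the histone methyltransferase Setdb1 and heterochromatin proteins, to silence retroelements and to protect imprints in embryonic stem cells. KRAB genes arose by repeated local duplication and often stand in clusters of related genes. Other members are solitary regulators of transcription or act on RNA, ribosomes or microtubules.

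A value covers the exons of a gene, as reads per kilobase of feature and per 1000000 reads of the library (RPKM), after rescaling to the total of the library itself. The totals were 1061428 reads for control 1, 2903602 for control 2, 3605774 for Zscan4 OE 1 and 4899494 for Zscan4 OE 2. The family held 1952, 3813, 7086 and 7008 reads in these libraries in that order, and the median described member had 5, 9, 18 and 18. Counts this low bound the precision of every single gene below. Markers checked the labelled cell type only loosely. Of the markers with 20 reads or more, the median level of 7 for stem cells ran from 0.922 to 2.23 RPKM over the libraries, that of 5 for feeder fibroblasts from 0.647 to 1.26 and that of 4 for endoderm from 0.614 to 1.24. The ranges overlapped, and no marker of the 3 lists was at 0 in all 4 libraries. Summed over each list, the reads were 21.7 to 44.4 reads per 1000000 library reads (RPM) for stem cells, 24.5 to 28.3 RPM for fibroblasts and 17.8 to 32.0 RPM for endoderm.

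Some members resemble one another in sequence, and this likeness was measured around the annotated start. For 314 members RefSeq (GRCm38.p6) gave the window from 250 bases before to 50 bases after the annotated start, and every pair of windows was aligned. A member was called a near-copy when at least 70% of its 300 bases were identical to those of another member, which held for 40. The term covers this window only: exon sequences, over which the reads were counted, were not compared. The measure and its minimum were chosen after values of these data had been seen. The sequences below show what such likeness looks like beside members without it. They run 5′ to 3′ over the 250 bases before the start, with CpG dinucleotides in capitals. Within the annotated span of the gene lie 13 of these bases in Zfp143, 22 in Zfp729a and 23 in Zfp955a, and 0 in the other 3. In some members named below, Zfp13, Zfp219 and Zfp936 among them, all 250 bases lie within that span. Such windows are not upstream of the whole gene. Zfp738 and Zfp729a, neighbours on chromosome 13, are near-copies and had the lowest levels of the described members, and Zfp955a, on chromosome 17, has a window identical to that of Zfp955b.

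Zfp738 (chr13:67683513-67683762, minus strand): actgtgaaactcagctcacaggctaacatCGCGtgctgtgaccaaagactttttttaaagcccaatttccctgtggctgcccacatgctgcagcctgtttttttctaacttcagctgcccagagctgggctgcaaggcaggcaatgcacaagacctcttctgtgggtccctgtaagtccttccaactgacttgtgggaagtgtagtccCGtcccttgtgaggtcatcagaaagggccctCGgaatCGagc
Zfp729a (chr13:67637782-67638031, minus strand): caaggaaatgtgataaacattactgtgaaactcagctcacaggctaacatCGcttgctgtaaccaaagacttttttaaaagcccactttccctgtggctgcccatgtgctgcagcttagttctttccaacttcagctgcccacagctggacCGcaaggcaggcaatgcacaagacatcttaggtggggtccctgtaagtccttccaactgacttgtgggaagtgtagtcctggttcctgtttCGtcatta
Zfp955a (chr17:33255146-33255395, minus strand): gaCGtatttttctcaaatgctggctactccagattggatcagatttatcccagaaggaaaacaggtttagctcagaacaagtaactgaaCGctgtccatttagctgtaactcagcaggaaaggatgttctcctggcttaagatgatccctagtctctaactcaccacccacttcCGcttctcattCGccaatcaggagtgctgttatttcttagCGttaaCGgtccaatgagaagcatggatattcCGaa

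Zfp143, a broadly active transcription factor that binds promoters, was among the members with the highest level, and Zfp708 and Zfp791 had 2 of the 4 largest positive statistics between the groups. No kept alignment joined any of these 3 windows to another member's.

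Zfp143 (chr7:110061452-110061701, plus strand): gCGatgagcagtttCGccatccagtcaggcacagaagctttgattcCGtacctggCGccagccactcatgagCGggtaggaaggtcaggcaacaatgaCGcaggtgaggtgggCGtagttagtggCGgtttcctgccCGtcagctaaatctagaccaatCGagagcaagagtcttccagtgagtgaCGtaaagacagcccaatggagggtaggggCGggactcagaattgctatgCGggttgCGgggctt
Zfp708 (chr13:67097977-67098226, minus strand): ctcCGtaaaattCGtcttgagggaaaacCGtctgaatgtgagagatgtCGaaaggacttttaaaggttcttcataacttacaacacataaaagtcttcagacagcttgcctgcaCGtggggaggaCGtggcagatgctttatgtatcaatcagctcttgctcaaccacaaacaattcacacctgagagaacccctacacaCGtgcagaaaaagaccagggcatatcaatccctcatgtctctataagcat
Zfp791 (chr8:85123096-85123345, minus strand): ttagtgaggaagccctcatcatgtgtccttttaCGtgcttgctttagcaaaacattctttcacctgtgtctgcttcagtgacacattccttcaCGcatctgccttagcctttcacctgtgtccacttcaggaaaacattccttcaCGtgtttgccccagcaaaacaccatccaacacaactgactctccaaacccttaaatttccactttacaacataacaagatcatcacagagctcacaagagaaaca

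Near-copies held fewer reads than other members, and shorter lengths were recovered for them. Zfp738 and Zfp729a shared 247 of the 300 bases of their windows. In the order control 1, control 2, Zscan4 OE 1 and Zscan4 OE 2, which every list of 4 values follows, Zfp738 had 3, 4, 4 and 9 reads. Zfp729a had 4, 4, 11 and 6. Zfp955a was listed at 0 in all 4 libraries, and Zfp955b had 0, 1, 0 and 1 reads. Over the 40 near-copies the median was 13 reads summed over the libraries, and 35.0% reached 20 reads. Over the other 274 members with a window the median was 49 reads and 89.4% reached 20. The median recovered length was 2892 bp in near-copies and 4318 bp in the others. Among the near-copies, the 3 members listed at 0 have no recovered length and entered this median as 0. A recovered length is too short where a row's reads and length share a factor, and the part of low counts in this difference was not tested. Per length the median level was 0.329 against 0.888 RPKM. All 3 members listed at 0 (Zfp955a, Zfp971 and Zfp972) were near-copies. With the minimum set at 60%, 80% or 90%, the median of the near-copies was 15.5, 13 and 7 reads, against 50, 49 and 47 in the others. How reads that match several copies were counted is not known from the sources used here, and its part in these values was not tested.

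**Figure D1:**
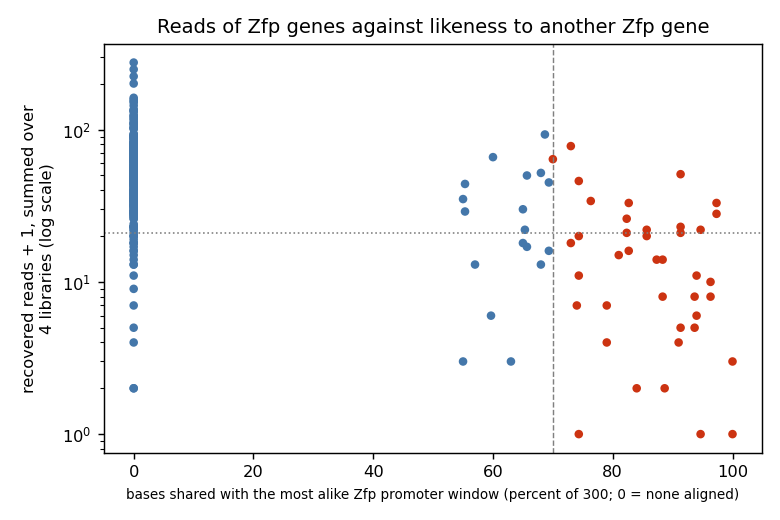
Reads of each of 314 Zfp genes, summed over the 4 libraries plus 1 on a log axis, against the share of its 300-base promoter window identical to the most alike window of another Zfp gene. Red points are the 40 near-copies at 70% or more (dashed line), blue points the other 274, with members without a kept alignment drawn at 0, and the dotted line marks 20 reads: most red points lie under it (35.0% reach it) and most blue points above it (89.4%).

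The windows were richer in CpG than those of the average annotated gene. Their median was 14 CpG dinucleotides, against 7 over all 27025 genes with a window, which include many non-coding genes. The ratio of observed to expected CpG had a median of 0.637 in members and 0.389 in all genes. Among rows with 20 reads or more it was 0.674 in 259 members and 0.716 in 12093 protein-coding rows. The letters TATAAA, searched on both strands, were present in 6.05% of member windows and in 14.2% of all windows. Across 259 described members, which are not independent and share libraries, Spearman's rho between the CpG ratio and the mean RPKM was 0.10, and with the log2 difference between the groups it was 0.02.

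Exon accessibility of the described members lay below that of the table as a whole in each library. Their median RPKM was 0.925, 0.674, 1.06 and 0.818. Over all 19012 rows with 20 reads or more it was 1.09, 0.871, 1.18 and 0.932, and over the 15228 protein-coding rows among them 1.07, 0.854, 1.16 and 0.917. The middle 50% of members spanned 0.542 to 1.47 RPKM in control 1 and 0.570 to 1.11 in Zscan4 OE 2. Long features had lower values: Spearman's rho between feature length and mean RPKM was -0.45 over 317 members and -0.49 over 15228 protein-coding rows, as a description of rows that share libraries. A short row reaches the minimum of 20 reads only at a high level. Over all members with a read rho was -0.146, and the part of the minimum in this difference was not tested.

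The members with the highest levels were measured in every library. Zfp13 had 5.68 and 2.73 RPKM in the controls, against 5.02 and 3.62 under Zscan4 OE. Zfp574 had 4.64, 2.26, 4.73 and 3.14, and Zfp143 had 4.33, 3.06, 4.78 and 2.52. Zfp219 had 4.59, 1.68, 4.91 and 3.43, and Zfp428 had 4.32, 2.37, 5.51 and 2.19. In each of these 5 the first library of both groups was above the second, and the groups overlapped. At the other end Zfp738 had 0.187, 0.0911, 0.0733 and 0.121 RPKM, followed by Zfp729a, Zfp366, Zfp974 and Zfp458, each with a mean under 0.32. The 6 members with 20 reads or more in every library were Zfp142, Zfp574, Zfp444, Zfp451, Zfp446 and Zfp219, named here after their values were seen. The log2 differences of these best-covered members ran from 0.14 (Zfp142) to 0.54 (Zfp219). Zfp142 was the one with the least difference, with means of 1.82 ± 0.00391 RPKM (control) and 2.02 ± 0.245 RPKM (Zscan4 OE; SD, n = 2).

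The comparison of Zscan4 OE with control asks, after the series title, whether Zscan4 makes chromatin more accessible. The Zscan4 genes themselves could not check the labels: Zscan4c, Zscan4d and Zscan4f were listed at 0 in all libraries. For the Zfp family as a whole no shift beyond the replicate spread was measured. Its summed reads were 1839 RPM in control 1 (exact Poisson 95% interval 1758 to 1922) and 1313 in control 2 (1272 to 1356). In Zscan4 OE 1 they were 1965 RPM (1920 to 2011) and in Zscan4 OE 2 1430 (1397 to 1464). The intervals cover counting error only. The group means were 1576 ± 372 and 1698 ± 378 RPM (SD, n = 2), a ratio of 1.08. The groups overlapped (exact permutation test, two-sided, p = 0.667, where the smallest p for 2 against 2 is 0.333). As a share of all exon reads the family took 1.49% and 1.40% in controls and 1.53% and 1.44% in Zscan4 OE. The first library of each group was above the second by both measures. In bulk libraries, fewer cells with an open locus and less opening per cell cannot be told apart.

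Gene by gene, the members differed about as the whole table did. The test was limma on log2(RPKM + 0.1) over all 19012 rows with 20 reads or more, with Benjamini-Hochberg adjustment over all of them and a threshold of 0.05, and a log2 difference is on that scale and understates the change of low genes. By this test 0 of 317 members were higher and 0 lower in Zscan4 OE, against 0.021% and 0.00526% of all rows. At an unadjusted p under 0.05 limma gave 15 higher and 4 lower members (4.73% and 1.26%), against 4.04% and 0.984% of all rows. Voom, limma's test for read counts, gave 17 and 7 (5.36% and 2.21%), against 3.35% and 1.78% of all rows. After adjustment voom called 0 members, against 0.0% of all rows higher and 0.00526% lower. Both Zscan4 OE values lay above both control values in 71 members (22.4%), against 20% of all rows, and below both in 29 (9.15%), against 11%. Positive differences were found in 199 members and negative ones in 118, that is 62.8% positive, against 60.3% of all rows. These shares are near the background, and no test of the family against other rows was made. The median difference was 0.21 in members and 0.14 in all rows. Without control 2 these medians were -0.02 and -0.07, so the direction of the members' median rested on that library. With quantile normalization the split was 166 positive to 151 negative, and in the values as deposited 290 to 27. Members with more reads varied less: the SD of the log2 difference was 0.791 in 146 members of 20 to 49 reads, 0.541 in 137 members of 50 to 99 and 0.464 in 34 members of 100 or more. Over the described members the log2 levels of the 2 controls correlated at 0.362, and those of the 2 Zscan4 OE libraries at 0.711. Over all rows tested these were 0.522 and 0.788. Control 1 correlated with Zscan4 OE 1 and 2 at 0.582 and 0.560 over members (0.646 and 0.621 over all rows). Control 2 did so at 0.344 and 0.426 (0.599 and 0.608 over all rows).

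**Figure D2:**
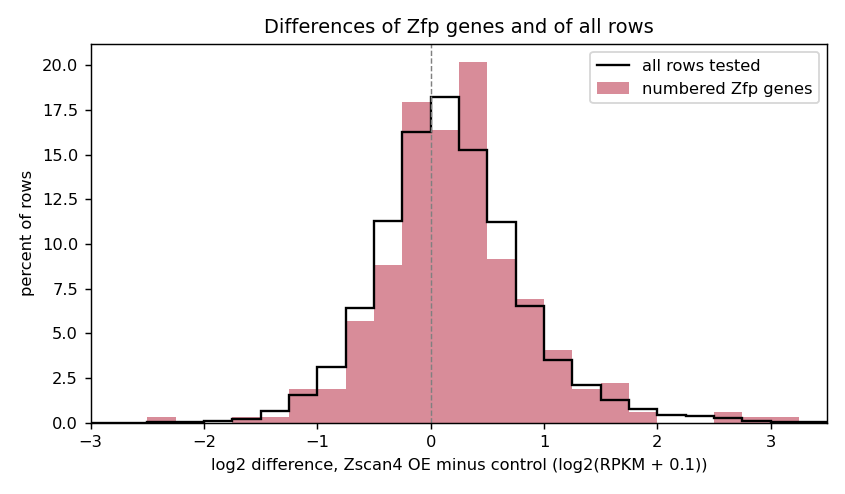
Share of rows (percent, y axis) by log2 difference of Zscan4 OE minus control on the log2(RPKM + 0.1) scale (x axis, bins of 0.25), for 317 Zfp genes (red bars) and all 19012 rows tested (black line). Both lie slightly to the right of 0, with medians of 0.21 and 0.14, and their outlines largely coincide.

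The largest statistic of the family belonged to Zfp708, a KRAB gene whose protein binds retroelements (chromosome 13, 67069398 to 67097976, GRCm38.p6). It had 1, 1, 18 and 27 reads. These were 0.358 and 0.131 RPKM in the controls, against 1.90 and 2.09 under Zscan4 OE, so both Zscan4 OE values stood clear of both control values. The means were 0.244 ± 0.161 and 1.99 ± 0.139 RPKM (SD, n = 2), 8.16-fold apart. The log2 difference was 2.69 (SE 0.518) with an adjusted p of 0.292 (limma), which did not pass. With a pseudocount of 1 the adjusted p was 0.0431, and Zfp708 was then the 1 member called, against 0.131% of all rows higher and 0.00526% lower. It was 0.949 with voom. With control 1 left out it was 3.7e-06, and with control 2 left out 0.00571. Leaving out Zscan4 OE 1 gave 0.9996, and leaving out Zscan4 OE 2 gave 0.747. Each of these last 4 fits leaves 1 library in a group, which is assumed to vary like the other group, whose 2 libraries alone give the spread of the gene. Its promoter window, printed above, aligned with no other member's, though near-copies of its exons were not looked for.

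The next members on the higher side also had very few control reads. All 10 members with the largest positive statistics, Zfp708 included, passed the 20-read minimum only through their Zscan4 OE reads, so their place on this side is partly set by the minimum. Zfp593 had 0 and 1 reads in the controls, against 8 and 11 under Zscan4 OE, and Zfp623 had 0 and 3 and then 14 in each. Zfp791 had 1, 5, 17 and 26 reads, and its means were 0.452 ± 0.187 and 1.70 ± 0.142 RPKM (SD, n = 2). Zfp617 was the best covered of the 10 members with the largest positive statistics, with 3, 3, 26 and 36 reads and means of 0.638 ± 0.419 and 2.41 ± 0.0320 RPKM (SD, n = 2), 3.77-fold apart. In these 4 members each Zscan4 OE library was above each control. Zfp939 (1, 1, 9 and 12 reads), Zfp954 (2, 2, 13 and 20), Zfp472 (1, 3, 14 and 10) and Zfp457 (1, 3, 18 and 10) followed the same order. Zfp936 had 0, 0, 9 and 11 reads. Its pooled Zscan4 OE level, 2.35 RPM, was 3.11-fold the 0.757 RPM of 3 reads over both control libraries, the limit that a count of 0 allows. This limit covers the control count only, not the counting error of the Zscan4 OE reads or the spread between libraries. Zfp936 and Zfp457 are near-copies, with 91.3% of the window of Zfp936 identical to that of Zfp977 and 82.7% of the window of Zfp457 to that of Zfp759. Adjusted p ran from 0.292 to 0.943 over these 10 (limma), all of which had 0 to 3 reads in control 1.

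On the lower side Zfp652, a transcriptional repressor, was the best covered. It had 17 and 52 reads in the controls, against 26 and 40 under Zscan4 OE, that is 1.04 and 1.16 against 0.467 and 0.529 RPKM. Both Zscan4 OE values lay below both controls, and the log2 difference was -1.003 (SE 0.479; limma adjusted p = 0.977). Zfp326, a protein that couples transcript elongation to splicing, had 1.31 and 0.764 RPKM in the controls, against 0.423 and 0.368 under Zscan4 OE, from 10, 16, 11 and 13 reads. Zfp426 had 1.16, 1.41, 0.624 and 0.626 RPKM, Zfp354c 1.18, 1.29, 0.644 and 0.547, and Zfp354a, first described in kidney, 1.09, 0.798, 0.450 and 0.378. In all 4 the groups did not overlap. Zfp185, which unlike most members is a LIM-domain protein of the actin cytoskeleton, had 3, 21, 4 and 12 reads, and Zfp131 had 8, 15, 15 and 13. Zfp942 had 5, 24, 12 and 9 reads, Zfp970 1, 15, 0 and 5, and Zfp316 12, 17, 11 and 30. Zfp942 and Zfp970 are near-copies, with 91.3% and 94.7% of the window shared with Zfp944 and Zfp971. Of these 10 members 8 had groups that did not overlap, and adjusted p ran from 0.943 to 0.999 (limma).

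**Figure D3:**
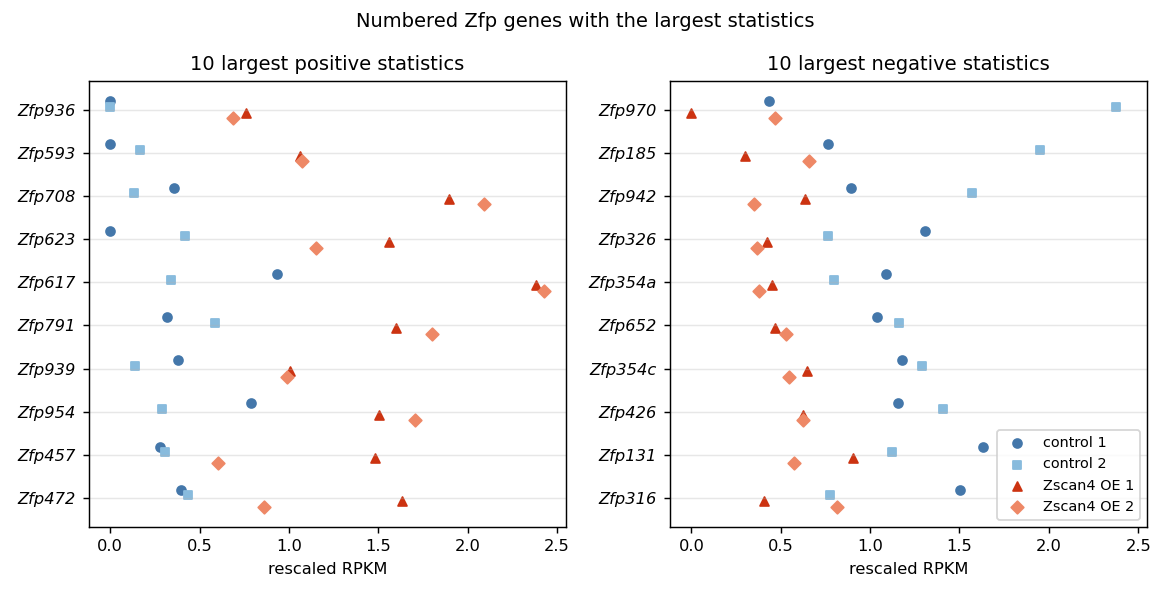
Rescaled RPKM (x axis) in each library of the 10 Zfp genes with the largest positive statistics (left) and the 10 with the largest negative statistics (right); blue marks are controls 1 and 2, red and orange marks Zscan4 OE 1 and 2. On the left every Zscan4 OE mark lies to the right of both control marks, and on the right 8 of 10 genes show the opposite order; none passed the adjusted threshold, and the genes were picked for these statistics.

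KRAB proteins with known targets at imprints and retroelements gave no call. The 10 genes of this list were all in the table and 7 had 20 reads or more. Of these 7, 0 passed over all genes, against 0.021% of all rows higher and 0.00526% lower. The groups did not overlap in 1 (Zfp708, higher), against 20% of all rows higher and 11% lower. Differences were positive in 6 and negative in 1, against 60.3% positive in all rows. Their median was 0.32, against 0.14 in all rows. Zfp57, which keeps DNA methylation at imprinted regions, had 2.49 and 1.55 RPKM in the controls, against 2.42 and 1.35 under Zscan4 OE, from 10, 17, 33 and 25 reads. Zfp445, its partner in imprint maintenance, had 0.509, 0.465, 0.898 and 0.413 RPKM. In both the groups overlapped. Zfp568, a repressor of a placental transcript of Igf2, had 1.03, 0.796, 1.58 and 0.833 RPKM. Zfp809, which silences retroviruses through their primer binding site, had 1.59, 1.05, 2.62 and 1.45, and Zfp961 had 2.39, 1.03, 3.65 and 1.84. The means of Zfp809, 1.32 ± 0.385 and 2.04 ± 0.831 RPKM (SD, n = 2), differed by less than the SD in Zscan4 OE. Zfp819, a repressor of retroelements in pluripotent cells, had 1, 9, 16 and 5 reads. The other 3, Zfp600, Zfp932 and Zfp989, had 7, 2 and 1 reads in all, 0 of them in the controls.

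Regulators of transcription outside the KRAB class were better covered. All 15 genes of the list had 20 reads or more and 0 passed over all genes. Differences were positive in 11 and negative in 4, against 60.3% positive in all rows, with a median of 0.21. The groups did not overlap in 9, with 7 of 15 higher, against 20% of all rows, and 2 of 15 lower, against 11%. Zfp462, a factor that restrains lineage genes in stem cells, had 0.264 and 0.483 RPKM in the controls, against 1.32 and 0.553 under Zscan4 OE. Zfp703, a developmental co-repressor, had 0.556, 0.711, 1.55 and 1.14, and Zfp322a, a factor of the pluripotency network, 0.451, 0.385, 1.02 and 0.782. These 3 had the list's highest differences, from 0.94 to 1.07, and none passed (lowest limma adjusted p = 0.9985). Zfp281, which acts in the exit from pluripotency, had 1.15 and 1.19 RPKM in the controls, against 1.46 and 1.32 under Zscan4 OE. Its groups did not overlap, and its log2 difference was 0.24. Zfp217 and Zfp521 were the 2 whose Zscan4 OE values lay below both controls, at 1.07 and 1.07 against 0.813 and 0.632 RPKM, and at 1.07 and 0.952 against 0.811 and 0.597. Zfp143, Zfp148, Zfp219, Zfp296, Zfp335, Zfp423, Zfp503, Zfp516 and Zfp536 had differences from -0.25 to 0.56.

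Members that act on RNA, ribosomes, microtubules or ubiquitin gave no call either. All 10 were tested and 0 passed over all genes. Differences were positive in 6 and negative in 4, against 60.3% positive in all rows, with a median of 0.20. Zfp638, which takes part in splicing and in silencing of unintegrated viral DNA, had 0.417 and 0.261 RPKM in the controls, against 0.789 and 0.684 under Zscan4 OE, from 7, 12, 45 and 53 reads, and the groups did not overlap. Zfp207, a microtubule-binding protein of the spindle, had 1.56 and 1.19 RPKM in the controls, against 0.916 and 0.644 under Zscan4 OE, and here the order was the opposite. Zfp91, a ubiquitin ligase, had 1.31, 0.274, 1.38 and 1.26 RPKM, so control 2 stood apart from the other 3 libraries. Zfp36, which binds AU-rich elements and destabilizes messenger RNA, did so too, with 1.90, 0.397, 1.44 and 1.12. Zfp598, the ubiquitin ligase of collided ribosomes, had 0.860, 1.05, 1.27 and 0.683 RPKM, and Zfp622, a ribosome maturation factor, 0.925, 0.870, 1.40 and 0.802. Zfp106, Zfp346 and Zfp385a had differences of 0.64, -0.35 and 0.18.

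**Figure D4:**
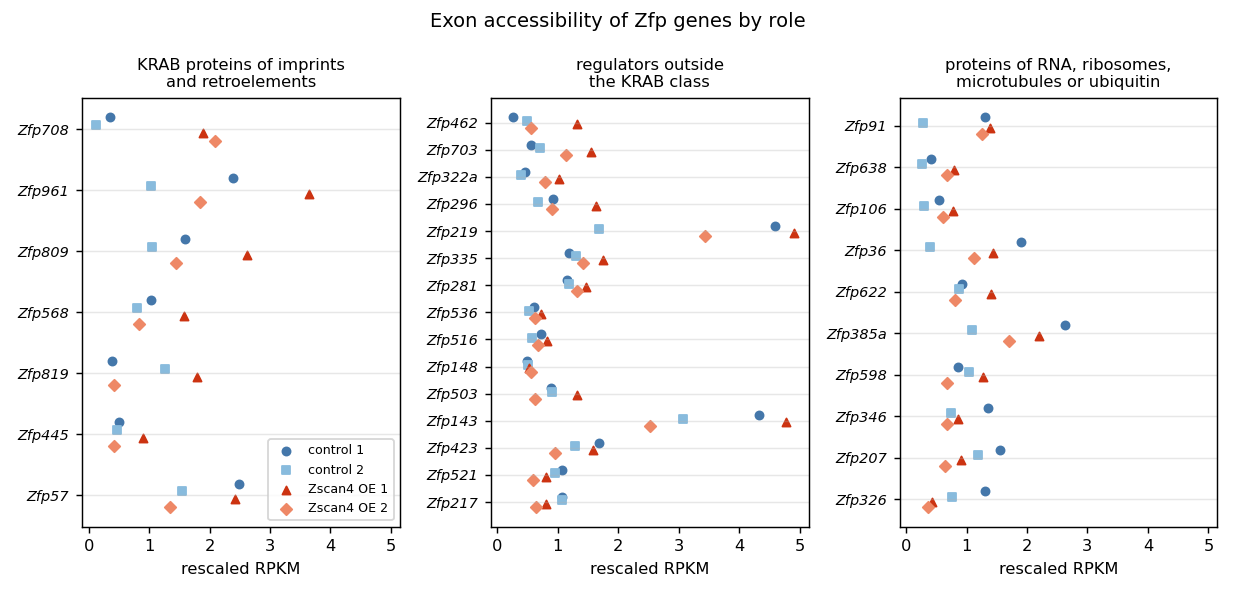
Rescaled RPKM (x axis) in each library of the 32 tested Zfp genes of 3 role lists, each ordered by its difference between the groups; blue marks are controls 1 and 2, red and orange marks Zscan4 OE 1 and 2. The groups do not overlap in 1 higher gene of 7 on the left. They do not overlap in 7 higher and 2 lower of 15 in the middle, and in 2 higher and 2 lower of 10 on the right. Over all rows these shares are 20% higher and 11% lower. Zfp708 at the upper left is the widest separation, and Zfp219 and Zfp143 reach the highest values.

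The co-repressor partners of KRAB proteins were taken from a list of 18 genes, of which 15 were tested and 0 passed. The 3 others were the Zscan4 genes listed at 0. Differences were positive in 13 and negative in 2 (Uhrf1 and Dnmt1), against 60.3% positive in all rows. Their median was 0.44, against 0.14 in all rows. In 6 of 15 both Zscan4 OE values lay above both controls, against 20% of all rows. Trim28 had 2.27 and 1.66 RPKM in the controls, against 3.27 and 2.16 under Zscan4 OE, and Setdb1 had 0.687, 0.804, 1.34 and 0.864. Smarcad1, a chromatin remodeller that binds Trim28, had 0.424, 0.465, 1.44 and 0.766 RPKM, with a log2 difference of 1.08 (SE 0.509; limma adjusted p = 0.977).

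Of 379 members matched to RefSeq by symbol, 375 were protein-coding and 93 lay on chromosome 7, with 44 on chromosome 17 and 37 on chromosome 13. Runs of at least 5 members with starts no more than 500 kb apart formed 17 clusters with 174 members, of which 143 had 20 reads or more, and 8 of the clusters were on chromosome 7. Clustered members had a median mean RPKM of 0.953, and 174 described members outside clusters 0.878. Their median log2 differences were 0.21 each. Of the clustered members 31 had higher and 10 lower groups that did not overlap, 21.7% and 6.99%, and of the others 40 and 19, 23.0% and 10.9%. These shares are near the 20% and 11% of all rows.

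Most clusters showed no separation of the groups. With the reads of a cluster summed, the groups overlapped in 14 of 17, both Zscan4 OE values were higher in 1 and lower in 2. The higher one was the 23-member cluster on chromosome 13 (66670274 to 67827000, GRCm38.p6) that holds Zfp708, Zfp457, Zfp738 and Zfp729a. Its pooled level, with reads over summed lengths, was 0.548 and 0.473 RPKM in the controls, against 0.686 and 0.577 under Zscan4 OE, while 7 differences of its 16 described members were positive and 9 negative. Without Zfp708 the values were 0.553, 0.481, 0.656 and 0.540 RPKM and the groups overlapped, so the separation rested on that gene. The cluster of 6 members on chromosome 11 (50811085 to 51072799), which holds Zfp354a, Zfp354b, Zfp354c, Zfp2, Zfp454 and Zfp879, was lower, at 1.13 and 1.15 RPKM in the controls, against 0.768 and 0.584 under Zscan4 OE. All 6 of its differences were negative, from -1.01 (Zfp354a) to -0.10 (Zfp2), and the groups of 2 members, Zfp354a and Zfp354c, did not overlap. This cluster stayed lower with any 1 member left out. The other lower one, on chromosome 9 (20345136 to 20605404), held Zfp560, Zfp26, Zfp426, Zfp266 and Zfp846, at 0.943 and 1.23 RPKM in the controls, against 0.821 and 0.790 under Zscan4 OE, with 4 of 5 differences negative. Without Zfp846 its values were 0.816, 1.22, 0.792 and 0.825 RPKM and the groups overlapped. Of the 17 clusters 4 had differences of 1 sign: all 6 were positive in a cluster on chromosome 7 and all 5 in the cluster on chromosome 8, and all 6 were negative on chromosome 11 and both described ones in the cluster on chromosome 4. Leaving out members was added after these values were seen. These clusters are singled out after their values were seen, and no test was made on them.

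**Figure D5:**
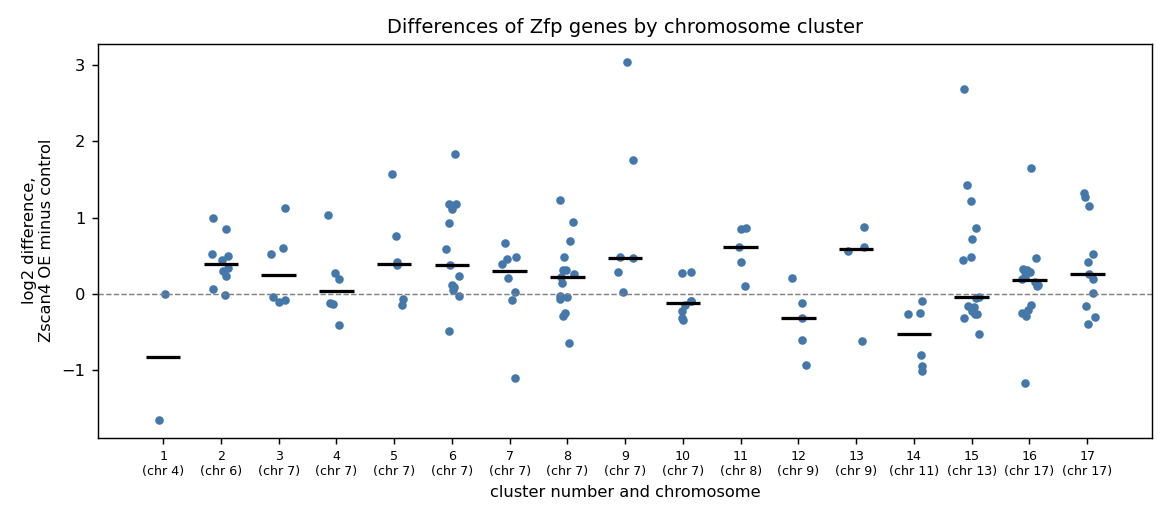
Log2 difference of Zscan4 OE minus control (y axis) of each described Zfp gene in the 17 chromosome clusters (x axis, cluster number with its chromosome); points are genes, shifted sideways at random, and black lines are cluster medians. Medians are above 0 in 12 clusters and below 0 in 5, and all 6 points of cluster 14 on chromosome 11 are below 0.

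With a control left out, 1 control library remains and the spread of a gene comes from the 2 Zscan4 OE libraries alone. Without control 1 limma called 14 members higher and 4 lower, against 2.47% and 0.363% of all rows. Without control 2 it called 11 and 2, against 4.23% and 0.947%. In the values as deposited, before rescaling, 3 members were called higher and 0 lower, against 0.337% and 0.00526% of all rows. At the edge of the 20-read minimum, Zfp511 (1, 2, 7 and 10 reads) and Zfp474 (1, 5, 3 and 11) were just inside, and Zfp105 (1, 2, 5 and 11) and Zfp264 (6, 5, 3 and 5) just outside.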

How the data were processed

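ATAC-seq values of 2 control and 2 Zscan4 OE libraries were taken from the single deposited table. Its unit is RPKM, per the labels. The submitters' processing notes name Trimmomatic, Bowtie2, featureCounts and mm10, with no versions, filters or annotation. The deposited RPKM were divided by 8 library totals that took turns from row to row. The totals came from 2486 short RNA genes, and all 38361 rows with 2 or more values gave whole reads for exactly 1 rotation (reads over a length of up to 200000 bp within 0.5 units of the last stored digit). Totals were placed in rotation order so that exon shares were most alike (12.4%, 9.38%, 12.8% and 9.93%; highest over lowest 1.36, next placement 4.17), and values were rescaled to these totals. A factor shared by a row's reads and length cannot be seen, and RPKM does not depend on it. In 1846 simulated rows with 20 reads or more over the libraries, 96.4% of rows had the right reads. Rows with fewer reads are not part of this share. For the 5918 rows with 1 value, the rotation that gave the shortest length was taken. Limma 3.58.1 (R 4.3.3, eBayes with trend, no covariate, both directions) was run and tested on simulated data, and Python 3.11.15 did the rest. Windows were aligned locally in pairs, and alignments scoring under 100 were not kept. ATAC reads carry no strand, so overlapping genes cannot be told apart. The planned split of members by a KRAB motif was not made. Named genes were the 10 largest statistics each way, the 5 highest and 5 lowest levels, the members next to the read minimum and 3 role lists. Members and lists were chosen with earlier results of these data known. Alternatives were other pseudocounts, filters and scalings, voom, a replicate block and leaving out each library.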

Additional observations from a re-analysis of the deposited data

How the results depend on the processing

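The number of called members, 0 higher and 0 lower, was the same with a pseudocount of 0.01, both looser filters, median-centred libraries, quantile normalization and voom. Of all rows, 0.00526% were called with median-centred libraries and with voom, and 0.0% in the others of these settings. The 0 called members there therefore say little about the family. With a pseudocount of 1 the number was 1 higher (0.131% of all rows). In the values as deposited it was 3 higher (Zfp623, Zfp708 and Zfp936), against 0.337% of all rows. Leaving out 1 library gave 0 to 14 higher and 0 to 4 lower members, with calls only where a control was left out. The lone library of a group is then assumed to vary like the other group. The median difference relative to all rows, 0.069, was -0.07 with rows of a mean RPKM of at least 0.1, -0.086 with rows of 1 read or more and -0.02 as deposited, so its sign changed. The relative median ran from 0.038 to 0.101 when 1 library was left out, and the cause of these changes was not tested. The median of all rows was 1.37 as deposited and 0.14 after rescaling. The ratio of summed reads, 1.08, ran from 0.908 without Zscan4 OE 1 to 1.29 without control 1, on both sides of 1. The share of near-copies with 20 reads, 35.0%, was 34.5 to 40.4% with other minimums of identity, added after seeing the data. At an unadjusted p under 0.05 the counts of 15 higher and 4 lower ran from 4 to 105 and from 0 to 12 over the settings (0.994 to 31.4% and 0.0316 to 5.02% of all rows). Of 60 named genes tested, 15 changed sign as deposited, 9 with quantile normalization and 6 with voom. The replicate numbers are not known to pair the libraries: deviations of same-numbered libraries correlated at 0.13 over all rows and 0.19 over members. With the replicate block 0 members were higher and 0 lower, and 0.0% of all rows were called. At an unadjusted p under 0.05 this fit gave 17 higher and 2 lower members (5.36% and 0.631%, against 4.89% and 1.71% of all rows). The relative median stayed at 0.069. The KRAB split was not run, as no protein sequences were used here. Depth limits single genes, since the median member had 5 reads in control 1.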
